A study of Mus musculus with 12 samples.

Results

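The genes described here are the plasma membrane and lysosomal amino acid transporters of the Slc1, Slc3, Slc6, Slc7, Slc36, Slc38 and Slc43 families, measured by RNA sequencing in mouse kidney. Members were all rows of the expression table whose symbol begins with one of these family names. The cystine carrier Slc7a11 and 3 transcripts named as opposite-strand genes (Slc36a3os, Slc6a19os and Slc7a6os) were left out. This gave 60 members of 25553 genes. All mice were labelled WT, and strain, age and sex are not given in the labels. Normoxic sham mice breathed room air and had surgery without clamping. Normoxic RIRI mice breathed room air and then had renal ischemia-reperfusion injury (RIRI), with both renal pedicles clamped for 45 min and 12 h of reperfusion. Preconditioned sham and preconditioned RIRI mice had the same surgery after 3 daily sessions of 2 h, 4 h and 8 h in a chamber at 8% oxygen. Each of the 4 groups had 3 mice, with 1 library per mouse.

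The proximal tubule takes back nearly all filtered amino acids. Carriers of the brush border, such as B0AT1 (Slc6a19) for neutral amino acids and the rBAT/b0,+AT exchanger (Slc3a1 with Slc7a9) for cystine and dibasic amino acids, bring them into the cell, and basolateral carriers such as y+LAT1 (Slc7a7) and LAT2 (Slc7a8) pass them on to the blood. Slc7 light chains such as b0,+AT, y+LAT1 and LAT2 need a heavy chain, rBAT or 4F2hc (Slc3a2), to reach the membrane. Other members, such as LAT1 (Slc7a5), CAT-1 (Slc7a1) and SNAT2 (Slc38a2), are known as carriers that cells raise when they are short of amino acids, through the transcription factor ATF4. Not every Slc6 member carries amino acids: the family also holds carriers of creatine, taurine, betaine, GABA and serotonin.

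Libraries held 33035307 to 35632033 reads, recovered from the steps of the FPKM values (fragments scaled by gene length and library depth). The summed FPKM of 14 proximal tubule markers was 8264 to 8746 in normoxic sham, 3184 to 3609 in normoxic RIRI, 6523 to 7288 in preconditioned sham and 3679 to 3935 in preconditioned RIRI. No proximal tubule marker had a mean under 0.1 FPKM. All 14 fell with injury in both arms (adjusted p under the threshold given below). In whole tissue, fewer cells of a type and less RNA per cell cannot be told apart, and this holds for every proximal member that fell. The summed FPKM of 8 neutrophil markers was 2.26 to 15.1 in normoxic sham, 132 to 293 in normoxic RIRI, 1.73 to 4.39 in preconditioned sham and 23.6 to 111 in preconditioned RIRI. Its part in the rise of any member was not tested. Xist was at most 0.00661 FPKM and the Y-linked gene Ddx3y at least 4.94 FPKM in all 12 libraries.

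Of the 60 members, 29 reached a mean of 5 FPKM in at least 1 group, and 15 stayed under 0.1 in all of them. The highest levels per length were of Slc7a13 (409 ± 11.1 FPKM in normoxic sham, SD, n = 3), Slc3a1 (358 ± 5.36) and Slc6a18 (165 ± 8.63), all of the brush border. Next in that order came Slc6a20b (85.3 ± 4.95), Slc6a19 (76.7 ± 12.9), Slc1a1 (74.8 ± 5.2), Slc6a8 (68.0 ± 5.10), Slc7a7 (62.2 ± 6.72), Slc7a9 (61.7 ± 5.01) and Slc6a13 (61.2 ± 3.37), and the 3 values of neighbours in this second order overlapped. Differences were tested for the 35 members that reached 1 FPKM in 3 or more of the 12 libraries. Changes are log2 differences of FPKM + 1 with their standard error (SE), and calls were made at an adjusted p under 0.05 (limma, Benjamini-Hochberg over all 12357 genes tested). Of the 35, 6 (Slc38a6, Slc6a12, Slc6a4, Slc7a12, Slc7a4 and Slc7a5) were under 1 FPKM in some libraries. Members that pass only through the groups where they are high must differ, so counts below describe the members and support no claim about the families.

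**Figure D1:**
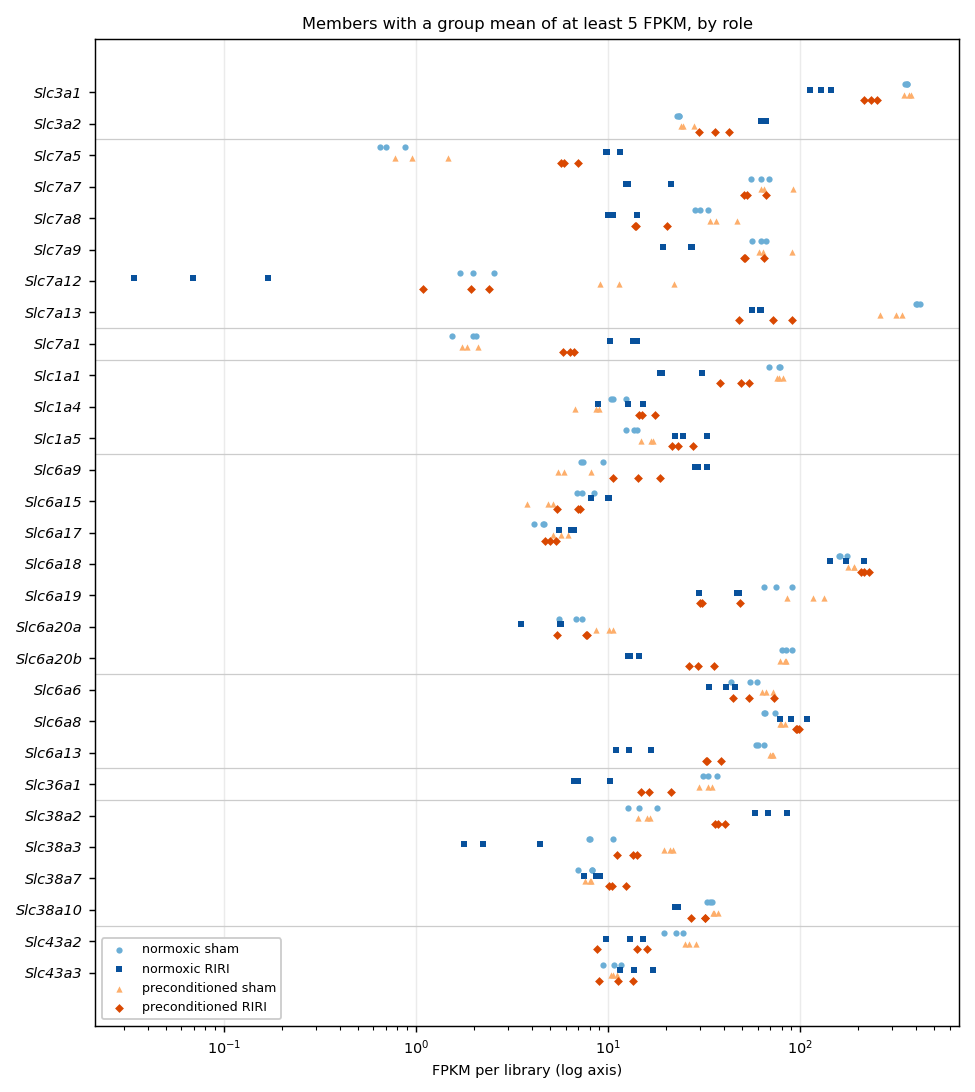
FPKM of the 29 members with a mean of at least 5 in some group, on a log axis, 1 point per library (3 per group), ordered by role with lines between roles. Slc7a5, Slc7a1, Slc38a2 and Slc6a9 lie to the right in both RIRI groups, while Slc7a13, Slc6a20b and Slc3a1 lie to the left, and Slc7a12 spans the widest range of levels.

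Setting normoxic RIRI beside normoxic sham shows what the injury did to these genes without preconditioning. Slc7a5, Slc7a1, Slc38a2, Slc6a9 and Slc3a2 rose at least 2-fold on this scale, and Slc7a13, Slc6a20b, Slc6a13, Slc36a1, Slc7a7, Slc1a1, Slc3a1, Slc7a12, Slc38a3, Slc7a8 and Slc7a9 fell at least 2-fold. Slc6a18, the third highest member and a brush border carrier, was not called. Of the 35 members tested, 10 rose and 15 fell, and 71.7% of all genes were called (41.6% higher and 30.1% lower). At least 2-fold rises numbered 5 and falls 11, against 11.2% and 9.68% of all genes. The median log2 difference was -0.28 over the members and 0.10 over all genes. Values of RIRI and sham were apart in 25 of 35 members and in 74.3% of all genes. Without the filter on low values, 11 of the 60 members rose and 20 fell, with 41.6% of all genes called, 23.7% and 17.9% in these directions.

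The 2 heavy chains moved in opposite directions. Slc3a1, which encodes rBAT (GRCm38 chromosome 17, 85028347 to 85064241), read 362, 361 and 352 FPKM in the normoxic sham mice and 128, 144 and 113 in the normoxic RIRI mice. All injured mice lay far below all sham mice, and the log2 difference was -1.48 ± 0.09 (SE; limma adjusted p = 5.59e-08). Slc3a2, which encodes 4F2hc (chromosome 19, 8706882 to 8723369), read 23.5, 22.9 and 23.5 FPKM in sham and 62.8, 66.4 and 64.4 in RIRI, a difference of 1.43 ± 0.11 (adjusted p = 2.85e-07). In the preconditioned mice Slc3a1 read 367, 347 and 378 FPKM in sham and 251, 233 and 215 in RIRI, a smaller fall (-0.64 ± 0.09). Slc3a2 read 23.9, 24.5 and 27.9 in preconditioned sham and 36.0, 29.9 and 42.7 in preconditioned RIRI (0.48 ± 0.11). The injury effects differed between the arms for both, as tested by the interaction (the effect in preconditioned minus that in normoxic mice), at 0.84 ± 0.13 for Slc3a1 (adjusted p = 0.00148) and -0.95 ± 0.15 for Slc3a2 (adjusted p = 0.00196). Both interaction calls held without each library in turn.

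Of the 9 light chains, 6 were tested, and with normoxic injury 5 fell and 1 rose, where 30.1% of all genes were called lower and 41.6% higher. Slc7a9, the b0,+AT partner of rBAT, read 66.3, 56.4 and 62.4 FPKM in normoxic sham, 27.4, 26.9 and 19.2 in normoxic RIRI, 64.3, 61.2 and 90.4 in preconditioned sham and 51.7, 51.1 and 64.9 in preconditioned RIRI. Its normoxic RIRI values were under all others, whereas the preconditioned groups overlapped. The fall was -1.31 ± 0.17 (adjusted p = 2.05e-05) in normoxic mice, and the difference in preconditioned mice was -0.35 ± 0.17 and not called (adjusted p = 0.0998, limma). Median-ratio rescaling of the libraries made the latter a call (-0.47, adjusted p = 0.0359). Slc7a7, the basolateral y+LAT1 that pairs with 4F2hc, read 68.7, 55.3 and 62.7 FPKM in normoxic sham and 21.2, 12.6 and 12.4 in normoxic RIRI. With preconditioning it read 64.5, 62.7 and 91.5 in sham and 50.8, 66.2 and 52.7 in RIRI, which overlapped. Its interaction of 1.63 ± 0.28 (adjusted p = 0.00271, limma) was the highest of the tested members, with 0.96 ± 0.23 for Slc7a9 (adjusted p = 0.0135).

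Slc7a13 and Slc7a8 fell in both arms, without a call of the interaction. Slc7a13 encodes AGT1, an aspartate, glutamate and cystine carrier that pairs with rBAT in the late proximal tubule. It read 406, 399.6 and 421 FPKM in normoxic sham, 56.1, 61.6 and 62.4 in normoxic RIRI, 317, 337 and 261 in preconditioned sham, and 90.9, 72.4 and 48.2 in preconditioned RIRI. Both injured groups lay far under both sham groups and overlapped each other. The falls were -2.75 ± 0.18 (adjusted p = 9.11e-08) and -2.14 ± 0.18 (adjusted p = 2.94e-06), with an interaction of 0.61 ± 0.25 that was not called (adjusted p = 0.0971, limma) but was called without preconditioned RIRI replicate 3 (0.86, adjusted p = 0.00584). Slc7a8, the basolateral LAT2, read 30.0, 33.0 and 28.4 FPKM in normoxic sham and 9.94, 14.2 and 10.5 in normoxic RIRI, and 33.9, 36.3 and 47.1 against 13.9, 20.1 and 13.8 with preconditioning. Its falls were -1.34 ± 0.17 and -1.25 ± 0.17, with an interaction of 0.09 ± 0.24 (adjusted p = 0.816, limma).

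Slc7a5, which encodes the large neutral carrier LAT1 (chromosome 8, 121881146 to 121907686), had the largest rise among the tested members in both arms. It read 0.649, 0.696 and 0.877 FPKM in normoxic sham and 9.86, 9.78 and 11.5 in normoxic RIRI. In preconditioned mice it read 0.951, 0.777 and 1.47 in sham and 5.88, 5.69 and 6.98 in RIRI, so that preconditioned RIRI lay between normoxic RIRI and both sham groups without overlap. The rises were 2.71 ± 0.12 (adjusted p = 8.26e-09) and 1.81 ± 0.12 (adjusted p = 7.61e-07), and the interaction was -0.90 ± 0.17 (adjusted p = 0.00471, limma). Slc7a6, a further partner of 4F2hc, did not pass the filter, at a mean of 0.332 FPKM in normoxic sham and 1.21 in normoxic RIRI. Of the untested light chains, Slc7a10 and Slc7a15 stayed under 0.1 FPKM in every group mean.

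**Figure D2:**
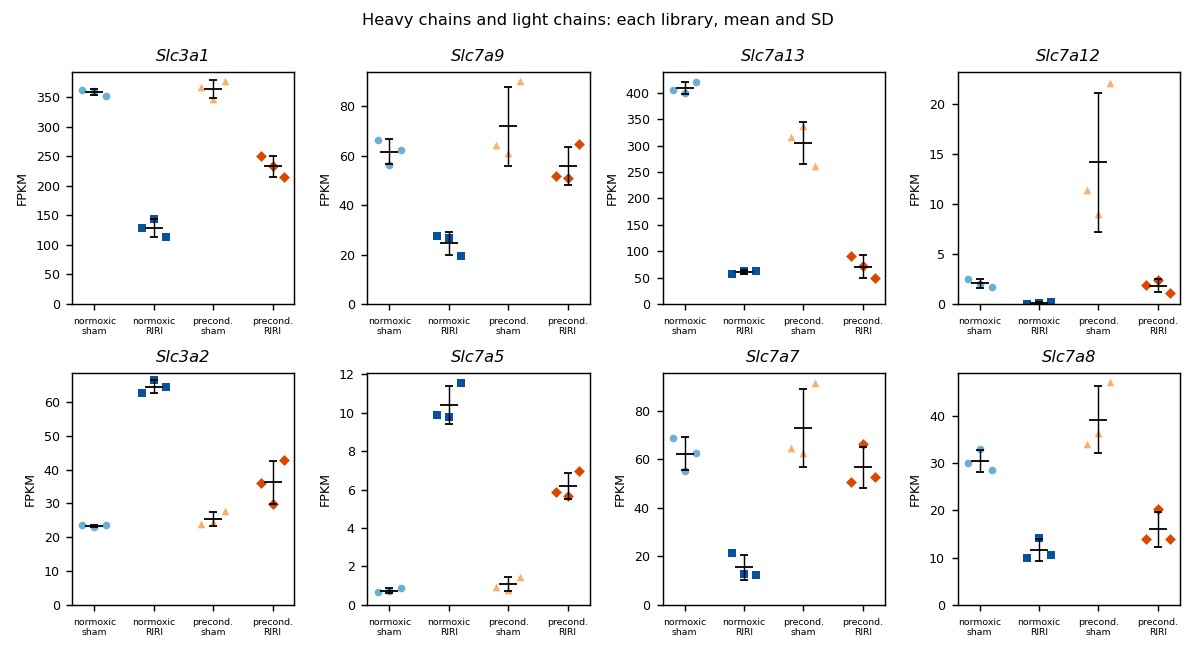
FPKM of the 2 heavy chains and 6 light chains in each library (points), with the group mean and SD (bars, n = 3). Slc3a1, Slc7a9, Slc7a13, Slc7a7 and Slc7a8 are low in normoxic RIRI, Slc3a2 and Slc7a5 are highest there, and Slc7a12 is highest in preconditioned sham.

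The cationic carrier Slc7a1 and the small neutral carriers Slc38a2, Slc6a9 and Slc1a5 rose with injury in both arms. Slc7a1, the arginine and lysine carrier CAT-1, read 1.53, 2.04 and 1.97 FPKM in normoxic sham and 10.2, 13.5 and 14.1 in normoxic RIRI, and 2.10, 1.74 and 1.84 against 6.32, 5.85 and 6.64 with preconditioning. Sham groups overlapped and the RIRI groups were apart from them and from each other. Its rises were 2.25 ± 0.12 and 1.33 ± 0.12, with an interaction of -0.92 ± 0.16 (adjusted p = 0.00312, limma). Slc38a2, the system A carrier SNAT2, read 12.7, 14.5 and 17.9 FPKM in normoxic sham, 58.1, 85.8 and 68.1 in normoxic RIRI, 16.6, 14.3 and 16.0 in preconditioned sham, and 40.4, 37.1 and 35.9 in preconditioned RIRI. It showed the same order of groups, with rises of 2.15 ± 0.14 and 1.23 ± 0.14 and an interaction of -0.93 ± 0.20 (adjusted p = 0.00765, limma). Slc7a4, the other tested member grouped with the cationic carriers, was not called in any comparison. With injury in normoxic mice it was called without normoxic RIRI replicate 1 (-0.49). Slc7a2 and Slc7a3 did not pass the filter.

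Slc6a9, the glycine carrier GlyT1, read 7.42, 9.38 and 7.21 FPKM in normoxic sham, 32.7, 29.5 and 28.3 in normoxic RIRI, 8.18, 5.92 and 5.50 in preconditioned sham, and 10.7, 18.6 and 14.4 in preconditioned RIRI. All 3 normoxic RIRI mice were above all others. The rises were 1.80 ± 0.18 (adjusted p = 2.76e-06) and 1.03 ± 0.18 (adjusted p = 0.000539). The interaction of -0.77 ± 0.25 passed narrowly (adjusted p = 0.0463, limma) and failed in 9 of 12 fits that left out 1 library, with adjusted p up to 0.108. It also failed in 5 of 8 other settings: a pseudocount of 0.1, no filter, quantile normalization, the replicate block (adjusted p = 0.0578) and voom on recovered reads, with adjusted p up to 0.114. The call was kept without normoxic sham replicate 2 and without preconditioned sham replicate 3 or preconditioned RIRI replicate 2. Slc1a5, the glutamine exchanger ASCT2, read 14.1, 12.3 and 13.6 FPKM in normoxic sham, 24.5, 22.3 and 32.8 in normoxic RIRI, 14.9, 16.8 and 17.2 in preconditioned sham, and 23.0, 21.6 and 27.5 in preconditioned RIRI. It rose by 0.92 ± 0.13 and 0.53 ± 0.13, and the difference between these effects was not called (-0.39 ± 0.19, adjusted p = 0.149, limma).

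Genes of the ATF4 amino acid response, from a list made for this report, stood beside these carriers as follows. Of 20 tested, 16 rose and 2 fell with injury in normoxic mice (median 1.84, against 0.10 over all genes), where 41.6% of all genes were called higher and 30.1% lower. In preconditioned mice 13 rose and 2 fell (median 1.02), where 33% and 19.4% of all genes were so called. Atf4 itself went from 52.6 ± 8.41 to 249 ± 32.7 FPKM in normoxic mice and from 48.8 ± 5.10 to 133 ± 16.2 in preconditioned mice (SD, n = 3), with an interaction of -0.80 ± 0.19 (adjusted p = 0.0121, limma). Asns, the asparagine synthetase, went from 1.75 ± 0.233 to 32.9 ± 3.28 and from 1.12 ± 0.101 to 15.6 ± 3.35. In preconditioned against normoxic RIRI, 11 of the 20 were lower and 2 higher, where 17.4% and 24.7% of all genes were so called.

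Promoter sequences of 4 members that rose in at least 1 arm are shown, picked because each holds a match to a searched pattern. They are from RefSeq on GRCm38.p6, which held 63 windows for 42 of the members, leaving out 18 members, and each is printed from 150 bases before to 30 bases after the start. The ATF4 and C/EBP pattern TGATGNAA, searched on both strands of the full windows of 250 bases before and 50 after the start, was in 4 of 63 member windows (6.349%) and in 3.969% of all 32851 windows. The antioxidant pattern TGACNNNGC was in 11 of 63 (17.46%) and in 12.392% of all. The hypoxia pattern ACGTG was in 19 of 63 (30.159%) and in 19.625% of all, and the HNF1 pattern in 0 of 63 and in 0.14% of all. A match to the antioxidant pattern can hold the hypoxia pattern. In Slc7a6 the antioxidant match TGACGTGGC held ACGTG, so the same bases count for both patterns. Of the 5 members with rises of at least 2-fold in normoxic mice, Slc7a5 was among the 18 without a window, and no window of Slc3a2, Slc7a1, Slc38a2 or Slc6a9 held the ATF4 pattern. Bases outside the windows, further upstream or within the genes, were not searched, so matches there cannot be told. Capitals below mark the ATF4 pattern in Slc1a4 and the antioxidant pattern in the others, on either strand.
Slc1a4 (chr11:20332684-20332863, minus strand): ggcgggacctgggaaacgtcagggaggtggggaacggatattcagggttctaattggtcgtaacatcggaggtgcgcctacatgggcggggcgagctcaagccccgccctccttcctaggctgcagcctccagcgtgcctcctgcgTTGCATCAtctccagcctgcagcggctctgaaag
Slc38a2 (chr15:96699699-96699878, minus strand): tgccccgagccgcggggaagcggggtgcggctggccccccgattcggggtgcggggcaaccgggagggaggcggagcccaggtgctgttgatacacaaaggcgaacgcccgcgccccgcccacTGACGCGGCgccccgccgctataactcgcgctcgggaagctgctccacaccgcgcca
Slc7a1 (chr5:148399875-148400054, minus strand): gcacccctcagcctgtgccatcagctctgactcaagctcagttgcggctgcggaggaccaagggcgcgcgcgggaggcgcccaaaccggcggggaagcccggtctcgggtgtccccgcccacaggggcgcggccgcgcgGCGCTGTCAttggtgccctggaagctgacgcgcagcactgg
Slc6a9 (chr4:117849200-117849379, plus strand): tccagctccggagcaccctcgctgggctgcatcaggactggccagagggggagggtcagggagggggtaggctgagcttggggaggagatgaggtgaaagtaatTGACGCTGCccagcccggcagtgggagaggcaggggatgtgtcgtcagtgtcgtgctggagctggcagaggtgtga
The match in Slc1a4 begins 4 bases before the start, that in Slc38a2 27, that in Slc7a1 11 and that in Slc6a9 46 bases before it. Slc7a7, a gene that fell, also held the ATF4 pattern, at 2 of its starts, and Slc36a1 and Slc6a13, which fell as well, held the antioxidant pattern.

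Slc1a4 had its highest group mean in preconditioned RIRI. The gene encodes ASCT1, an exchanger of alanine, serine and cysteine (chromosome 11, 20302180 to 20332713). It read 12.4, 10.3 and 10.6 FPKM in normoxic sham, 15.3, 8.86 and 12.6 in normoxic RIRI, 8.69, 8.96 and 6.75 in preconditioned sham, and 15.0, 17.6 and 14.4 in preconditioned RIRI. The normoxic groups overlapped (0.11 ± 0.16, adjusted p = 0.574, limma), and the preconditioned RIRI mice were all above the preconditioned sham mice (0.87 ± 0.16, adjusted p = 0.000907). The interaction was 0.77 ± 0.23 (adjusted p = 0.0337). It was not called without normoxic sham replicate 1 or 3, preconditioned sham replicate 1 or 3, or preconditioned RIRI replicate 2, with adjusted p up to 0.0797 over the fits that left out 1 library, and not without the filter (adjusted p = 0.0853). Slc1a1, the glutamate carrier EAAC1 of the brush border, read 78.1, 77.6 and 68.8 FPKM in normoxic sham, 30.9, 18.6 and 19.1 in normoxic RIRI, 80.9, 76.1 and 77.1 in preconditioned sham, and 49.0, 54.4 and 38.1 in preconditioned RIRI. It fell by 1.70 ± 0.17 on the log2 scale in normoxic and by 0.73 ± 0.17 in preconditioned mice, with an interaction of 0.97 ± 0.24 (adjusted p = 0.0151, limma). The 4 other Slc1 members did not pass the filter.

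Among the Slc6 members grouped here as amino acid carriers, Slc6a20b (chromosome 9, 123593823 to 123632538) fell furthest in normoxic mice. Slc6a19, described next, fell further in preconditioned mice. Slc6a20b read 90.6, 84.4 and 80.9 FPKM in normoxic sham, 12.6, 14.5 and 13.0 in normoxic RIRI, 84.7, 78.7 and 83.4 in preconditioned sham, and 29.5, 35.4 and 26.4 in preconditioned RIRI. The sham groups overlapped, and preconditioned RIRI lay between them and normoxic RIRI without overlap. The falls were -2.59 ± 0.10 (adjusted p = 2.54e-09) and -1.42 ± 0.10 (adjusted p = 8.77e-07), with an interaction of 1.17 ± 0.14 (adjusted p = 0.000609, limma). Its close copy Slc6a20a, the next gene on the chromosome, read 6.77, 7.33 and 5.54 FPKM in normoxic sham and 5.71, 5.60 and 3.51 in normoxic RIRI, which overlapped and gave no call (-0.36 ± 0.17, adjusted p = 0.0734, limma). Both rescalings called it (-0.47 and -0.51), as did fits without normoxic sham replicate 3 or normoxic RIRI replicate 1 (both -0.46). It read 8.65, 10.2 and 10.7 in preconditioned sham and 5.40, 7.73 and 7.70 in preconditioned RIRI (-0.46 ± 0.17, adjusted p = 0.0399, limma). That call was lost without normoxic sham replicate 1, preconditioned sham replicate 2 or 3, or preconditioned RIRI replicate 1 (adjusted p up to 0.164). Reads shared by the 2 copies could be split by the authors' counting, so their levels are uncertain in that respect.

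The neighbouring genes Slc6a18 and Slc6a19 on chromosome 13 both encode neutral amino acid carriers of the brush border and behaved unlike each other. Slc6a19 (73679745 to 73700780) read 75.3, 90.2 and 64.6 FPKM in normoxic sham, 47.8, 46.6 and 29.6 in normoxic RIRI, 85.0, 116 and 134 in preconditioned sham, and 30.0, 48.3 and 30.8 in preconditioned RIRI. Injured mice were under sham mice in each arm, and the 2 RIRI groups overlapped. It fell by 0.89 ± 0.23 on the log2 scale in normoxic mice (adjusted p = 0.00444) and by 1.60 ± 0.23 in preconditioned mice (adjusted p = 0.000159), with no call of the interaction (-0.71 ± 0.33, adjusted p = 0.139, limma). Slc6a18 read 159.7, 175 and 160.5 FPKM in normoxic sham, 215, 173 and 143 in normoxic RIRI, 189.8, 178 and 189.6 in preconditioned sham, and 207, 215 and 229 in preconditioned RIRI. Its change with injury was 0.08 ± 0.12 in normoxic and 0.22 ± 0.12 in preconditioned mice, and neither was called (adjusted p = 0.565 and 0.136, limma). The latter was called without normoxic RIRI replicate 1 (adjusted p = 0.0388). Slc6a19os, which overlaps Slc6a19 in the annotation, went from a mean of 0.0343 to 7.74 FPKM with normoxic injury and from 0.0563 to 0.825 in preconditioned mice. Whether counting used strand is not given in the sources used here, so reads of the overlap cannot be told apart.

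Slc6a15 and Slc6a17, carriers of branched-chain and other neutral amino acids known mainly from brain, were low. Slc6a15 read 8.48, 7.31 and 6.89 FPKM in normoxic sham, 10.1, 8.14 and 9.99 in normoxic RIRI, 4.87, 3.78 and 5.14 in preconditioned sham, and 6.94, 7.10 and 5.42 in preconditioned RIRI. Each preconditioned group lay under the normoxic group of the same surgery. Its difference with injury in normoxic mice was not called (0.28 ± 0.13, adjusted p = 0.065, limma) but was without normoxic sham replicate 1 (0.36), normoxic RIRI replicate 2 (0.37), preconditioned sham replicate 2 or preconditioned RIRI replicate 3. It rose with injury in preconditioned mice (0.42 ± 0.13, adjusted p = 0.0155, limma), a call lost without preconditioned sham replicate 2 or preconditioned RIRI replicate 1 or 2 (adjusted p up to 0.0724). Slc6a17 read 4.65, 4.58 and 4.10 FPKM in normoxic sham, 6.44, 6.68 and 5.57 in normoxic RIRI, 5.67, 5.14 and 6.20 in preconditioned sham, and 4.67, 5.37 and 4.98 in preconditioned RIRI. It rose by 0.41 ± 0.09 in normoxic mice (adjusted p = 0.00131), and its interaction was -0.56 ± 0.12 (adjusted p = 0.00919, limma). The other 5 Slc6 amino acid carriers did not pass the filter.

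Of the 9 Slc6 carriers of osmolytes, creatine and transmitters, 5 were tested. Slc6a13, the GABA and taurine carrier GAT2 of the basolateral proximal tubule, read 65.0, 60.0 and 58.6 FPKM in normoxic sham, 12.8, 16.7 and 11.0 in normoxic RIRI, 72.6, 71.3 and 70.0 in preconditioned sham, and 38.5, 32.6 and 32.2 in preconditioned RIRI. All 4 groups were apart from each other. The falls were -2.12 ± 0.12 and -1.03 ± 0.12, with an interaction of 1.09 ± 0.17 (adjusted p = 0.00195, limma). Its neighbour Slc6a12, the betaine carrier BGT1 of the inner kidney, read 0.359, 0.494 and 0.689 FPKM in normoxic sham, 1.21, 3.78 and 1.37 in normoxic RIRI, 1.72, 1.39 and 2.08 in preconditioned sham, and 0.676, 0.723 and 0.856 in preconditioned RIRI. It rose with injury in normoxic mice (0.96 ± 0.23, adjusted p = 0.00302) and fell with it in preconditioned mice (-0.63 ± 0.23, adjusted p = 0.0398). Its interaction of -1.59 ± 0.33 was called (adjusted p = 0.00671, limma). Without normoxic RIRI replicate 2, the high library, the normoxic rise was 0.60 (adjusted p = 0.00143). The fall in preconditioned mice was lost without normoxic sham replicate 2, preconditioned sham replicate 1 or 3, or any 1 preconditioned RIRI library (adjusted p up to 0.121).

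Slc6a8, the creatine carrier, read 73.9, 65.6 and 64.6 FPKM in normoxic sham, 109, 78.6 and 89.1 in normoxic RIRI, 78.8, 83.8 and 79.9 in preconditioned sham, and 98.1, 95.0 and 96.2 in preconditioned RIRI. It rose in normoxic mice (0.42 ± 0.10, adjusted p = 0.00266), and the difference in preconditioned mice was not called (0.25 ± 0.10, adjusted p = 0.0545, limma) but was without normoxic RIRI replicate 1 or 2 (adjusted p = 0.0122 and 0.0198). The preconditioned difference was also called when only the groups compared were fitted (adjusted p = 0.00995) and with voom on recovered reads (adjusted p = 0.0495). All preconditioned RIRI values of Slc6a8 were above all preconditioned sham values. Slc6a6, the taurine carrier, read 54.7, 59.7 and 43.5 FPKM in normoxic sham, 46.0, 41.1 and 33.3 in normoxic RIRI, 63.1, 66.2 and 72.4 in preconditioned sham, and 54.3, 73.0 and 44.6 in preconditioned RIRI. RIRI overlapped sham in each arm, and injury gave no call in either arm (adjusted p = 0.0659 and 0.238). Both median-ratio rescaling (-0.51, adjusted p = 0.0215) and quantile normalization (-0.44, adjusted p = 0.0334) called the normoxic difference of Slc6a6 as lower. So did the replicate block (adjusted p = 0.0373) and fits without normoxic sham replicate 3 (-0.51) or normoxic RIRI replicate 1 (-0.48), and without either of preconditioned RIRI replicates 2 and 3, and the preconditioned difference was called without preconditioned RIRI replicate 2 (-0.44). Slc6a4, the serotonin carrier, fell with normoxic injury from a mean of 1.78 to 0.957 FPKM (-0.51 ± 0.17, adjusted p = 0.0179, limma). That call was lost without normoxic sham replicate 2 or normoxic RIRI replicate 2 (adjusted p up to 0.0647).

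Members of the Slc36 and Slc38 families moved unequally. Slc36a1, the lysosomal PAT1 (chromosome 11, 55204322 to 55236330), read 36.8, 33.0 and 31.3 FPKM in normoxic sham, 10.2, 6.65 and 6.95 in normoxic RIRI, 32.9, 34.8 and 29.8 in preconditioned sham, and 14.8, 21.4 and 16.3 in preconditioned RIRI. It fell by 1.98 ± 0.15 on the log2 scale in normoxic and by 0.87 ± 0.15 in preconditioned mice, with an interaction of 1.10 ± 0.22 (adjusted p = 0.0053, limma). Slc38a10 read 34.6, 34.0 and 32.6 FPKM in normoxic sham, 23.2, 22.3 and 22.8 in normoxic RIRI, 35.0, 35.6 and 37.5 in preconditioned sham, and 27.1, 31.8 and 32.1 in preconditioned RIRI. Its fall was -0.55 ± 0.07 in normoxic mice and -0.24 ± 0.07 in preconditioned mice. The latter was lost without preconditioned sham replicate 3 or preconditioned RIRI replicate 1 (adjusted p up to 0.063, limma), and the interaction was not called (0.30 ± 0.10, adjusted p = 0.0523) but was without preconditioned RIRI replicate 1 (0.38, adjusted p = 0.0147). It was also called with the filter at 5 FPKM, after median-ratio rescaling, after quantile normalization and with voom on recovered reads, 4 of 8 other settings (adjusted p from 0.0265). The arginine sensor Slc38a9, with group means of 1.07 to 1.29 FPKM, and Slc36a4 and Slc38a6 were not called in any comparison.

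Slc38a7, a lysosomal glutamine carrier, read 8.24, 6.99 and 8.23 FPKM in normoxic sham, 8.64, 7.45 and 9.03 in normoxic RIRI, 8.12, 7.53 and 8.06 in preconditioned sham, and 10.4, 10.1 and 12.4 in preconditioned RIRI. Preconditioned RIRI was above the 3 other groups, which overlapped. It rose with injury in preconditioned mice (0.43 ± 0.10, adjusted p = 0.00304) and not by the test in normoxic mice (0.09 ± 0.10, adjusted p = 0.433), but the interaction was not called (0.34 ± 0.14, adjusted p = 0.0918, limma). Quantile normalization (0.38, adjusted p = 0.0461) and the replicate block (adjusted p = 0.0429) called it. Slc43a2, the basolateral LAT4, read 22.5, 24.6 and 19.6 FPKM in normoxic sham, 15.3, 13.0 and 9.80 in normoxic RIRI, 25.2, 26.5 and 28.6 in preconditioned sham, and 8.78, 14.1 and 15.9 in preconditioned RIRI. It fell in both arms (-0.78 ± 0.19 and -1.03 ± 0.19; interaction -0.25 ± 0.27, adjusted p = 0.525, limma). Slc43a3, a carrier of purine bases, read 10.8, 9.40 and 11.7 FPKM in normoxic sham, 11.6, 13.6 and 17.2 in normoxic RIRI, 10.5, 10.3 and 11.1 in preconditioned sham, and 11.3, 8.93 and 13.5 in preconditioned RIRI. The call of its rise in normoxic mice (0.37 ± 0.15, adjusted p = 0.0435) rested on overlapping groups and was lost in 8 of 12 fits that left out 1 library, in every one except those without replicate 1 of normoxic RIRI, replicate 3 of normoxic sham, or either of preconditioned RIRI replicates 2 and 3 (adjusted p up to 0.189).

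In preconditioned mice as a whole, 9 of the 35 tested members rose and 14 fell with RIRI, with 52.4% of all genes called (33% higher and 19.4% lower). The median log2 difference was -0.15 over the members and 0.10 over all genes. At least 2-fold rises numbered 4 and falls 7, against 4.7% and 3.76% of all genes. Groups did not overlap in 26 members and in 63.3% of all genes. Without the filter, 10 of the 60 members rose and 14 fell, with 26.9% of all genes called (16% and 10.9%). The interaction was called for 15 of 35 members, 8 positive and 7 negative, where 23.9% of all genes were called (11.3% and 12.6%). Interactions of at least 2-fold numbered 4 positive and 1 negative, against 2.63% and 2.05% of all genes. Without the filter, 9 of the 60 members were positive and 6 negative, with 9.01% of all genes called (3.92% and 5.1%). The 7 negative were Slc3a2, Slc38a2, Slc7a1, Slc7a5, Slc6a9, Slc6a17 and Slc6a12, and the 8 positive were Slc3a1, Slc7a9, Slc7a7, Slc1a1, Slc6a13, Slc6a20b, Slc36a1 and Slc1a4.

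**Figure D3:**
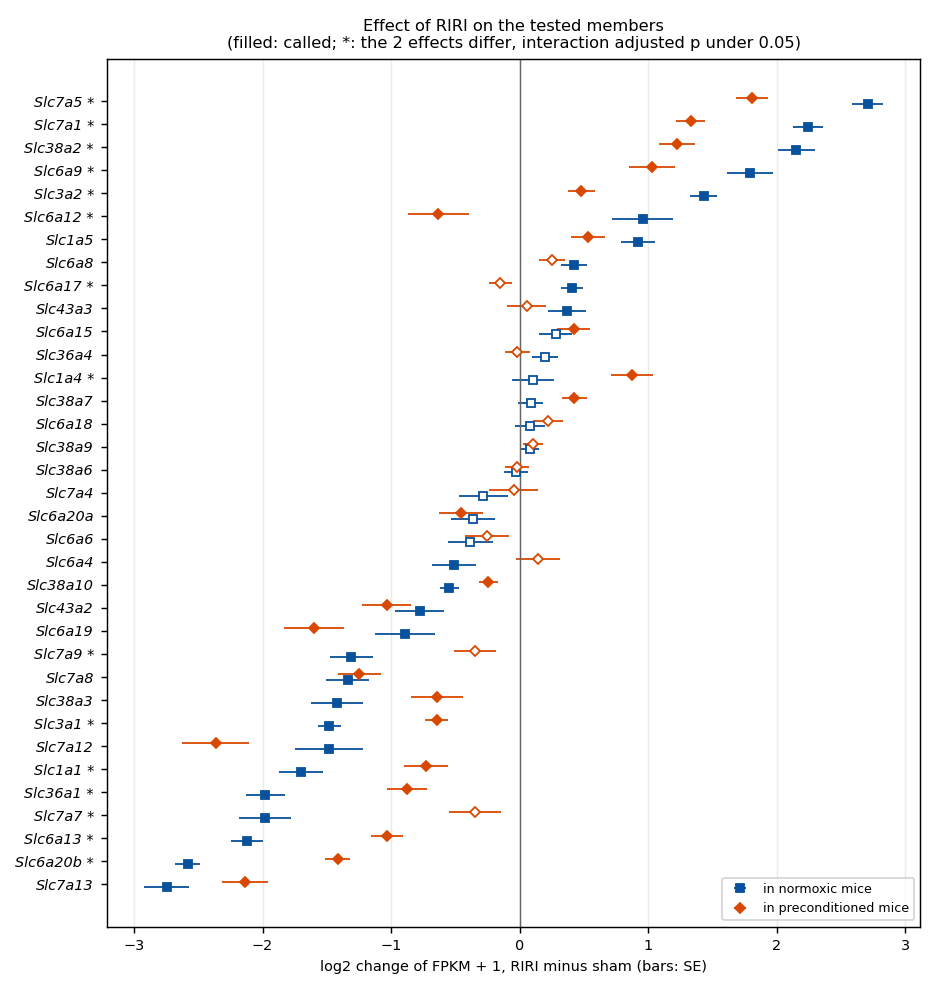
Log2 change of FPKM + 1 with RIRI for the 35 tested members, in normoxic mice (squares) and preconditioned mice (diamonds), with SE bars, ordered by the change in normoxic mice. Filled symbols were called and asterisks mark the 15 members whose effects differed between the arms by the interaction test; Slc6a12 lies on opposite sides of 0 in the 2 arms.

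Setting the 2 injured groups beside each other shows how injured kidneys differed after preconditioning. It shares libraries with both injury comparisons above. Of the 35 tested members, 13 were higher and 8 lower in preconditioned RIRI, and 42.1% of all genes were called (24.7% higher and 17.4% lower). At least 2-fold higher were 9 and at least 2-fold lower was 1, against 2.81% and 1.97% of all genes. Without the filter, 14 of the 60 members were higher and 7 lower, with 19.6% of all genes called (11.1% and 8.54%). Groups did not overlap in 20 members and in 47.7% of all genes, and the median was 0.25 over the members and 0.06 over all genes. Of the members that fell with normoxic injury, Slc7a7 was higher by 1.84 ± 0.20 (adjusted p = 6.76e-05), Slc6a13 by 1.31 ± 0.12 (2.76e-05), Slc7a9 by 1.16 ± 0.17 (0.000317), Slc6a20b by 1.12 ± 0.10 (2.05e-05), Slc36a1 by 1.05 ± 0.15 (0.000375), Slc1a1 by 1.04 ± 0.17 (0.000789) and Slc3a1 by 0.86 ± 0.09 (5.07e-05, limma). The glycine carrier Slc6a9 was the 1 member at least 2-fold lower (-1.03 ± 0.18), and Slc7a1 (-0.89 ± 0.12), Slc38a2 (-0.87 ± 0.14), Slc3a2 (-0.83 ± 0.11) and Slc7a5 (-0.67 ± 0.12) were lower as well. Slc6a15 was also lower (-0.48, adjusted p = 0.011), while Slc38a10 (0.39, adjusted p = 0.00146) and Slc38a7 (0.36, adjusted p = 0.0122, limma) were higher. The call of Slc38a7 was lost when only the groups compared were fitted (adjusted p = 0.0541). No call was made for Slc7a13 (0.18 ± 0.18), Slc7a8 (0.43 ± 0.17), Slc6a19 (-0.18 ± 0.23), Slc43a2 (0.01 ± 0.19) and Slc1a5 (-0.12 ± 0.13), with adjusted p of 0.432, 0.0586, 0.558, 0.984 and 0.476 (limma). Slc7a8 was called with the replicate block (adjusted p = 0.04), with voom on recovered reads, and without normoxic RIRI replicate 2 (0.57) or preconditioned sham replicate 3, and Slc7a13 without preconditioned RIRI replicate 3 (0.43). Slc6a18 (0.31, adjusted p = 0.052) and Slc6a20a (0.43, adjusted p = 0.0608, limma) were not called either. Slc6a18 was called with the filter at 5 FPKM, with voom and without normoxic RIRI replicate 1. Slc6a20a was called without replicate 1 of either RIRI group. The uncalled Slc1a4 and Slc43a3 were called without normoxic RIRI replicate 1, and Slc43a3 also without preconditioned RIRI replicate 3.

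Slc6a4 was higher in preconditioned than in normoxic RIRI, at 4.08, 3.49 and 2.67 FPKM against 1.02, 0.740 and 1.11 (1.17 ± 0.17, adjusted p = 0.000369, limma). The calls of Slc6a6 (0.49 ± 0.17, adjusted p = 0.0414), Slc6a17 (-0.27 ± 0.09, adjusted p = 0.0307) and Slc6a12 (-0.74 ± 0.23, adjusted p = 0.0248) were the least stable. Slc6a6 kept its call only without replicate 1 of normoxic RIRI, replicate 3 of preconditioned RIRI, or replicate 2 or 3 of normoxic sham (adjusted p up to 0.168 over the 12 fits). Slc6a17 lost it without normoxic RIRI replicate 1 or 2 or preconditioned RIRI replicate 1 or 3 (up to 0.0963), and Slc6a12 without preconditioned RIRI replicate 1 or 2 (up to 0.0643). Without normoxic RIRI replicate 2, the difference of Slc6a12 was -0.39. The calls of Slc6a6, Slc6a17 and Slc6a12 were also lost without the filter and when only the groups compared were fitted. That of Slc6a6 was lost after median-ratio rescaling as well. After median-ratio rescaling, 48.2% of all calls in this comparison were higher, against 58.7% as deposited, and the split also moved from 63% to 49.4% for injury in preconditioned mice and from 44.2% to 23.9% between the sham groups. It moved the median of all genes in normoxic RIRI against normoxic sham from 0.10 to -0.00.

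Hypoxic preconditioning alone, the comparison of preconditioned sham with normoxic sham, raised 2 of the 35 tested members and lowered 0, where 0.421% of all genes were called (0.186% higher and 0.235% lower). Both were at least 2-fold higher, as were 0.0647% of all genes, with 0.105% at least 2-fold lower. Without the filter, 1 of the 60 members was called, as higher, and 0.227% of all genes (0.102% higher and 0.125% lower). Another 9 members, not called, had an unadjusted p under 0.05. Groups did not overlap in 18 of the 35, against 29.4% of all genes, and the median log2 difference was 0.16 over the members and 0.06 over all genes. Slc7a12, which encodes the light chain Asc-2 (chromosome 3, 14480697 to 14505819), read 2.53, 1.97 and 1.68 FPKM in normoxic sham and 11.4, 9.02 and 22.1 in preconditioned sham. Every preconditioned sham mouse was above every normoxic sham mouse, with a difference of 2.22 ± 0.26 (adjusted p = 0.0034, limma). In RIRI it read 0.0342, 0.0691 and 0.169 FPKM in normoxic mice, the lowest library holding 2 recovered reads, and 1.93, 2.40 and 1.09 in preconditioned mice. It fell with injury in both arms (-1.48 ± 0.26 and -2.37 ± 0.26), and the interaction was not called (-0.88 ± 0.37, adjusted p = 0.104, limma) but was without preconditioned sham replicate 2 (-1.14, adjusted p = 0.042). On FPKM + 1 the fall in normoxic mice is understated, and the order of the arms turned with the scale. With a pseudocount of 0.1 the falls were -3.55 in normoxic and -2.86 in preconditioned mice, and the interaction changed sign (0.69, adjusted p = 0.358). With voom on recovered reads they were -4.60 and -2.92 (interaction 1.68, adjusted p = 0.338, limma), so neither arm is shown to fall further.

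Slc38a3, which encodes the system N glutamine carrier SNAT3 (chromosome 9, 107651154 to 107668968) of the basolateral proximal tubule, known for its rise when the kidney makes ammonia, read 7.93, 10.5 and 8.03 FPKM in normoxic sham and 20.9, 19.5 and 21.8 in preconditioned sham. The groups were apart, with a difference of 1.15 ± 0.20 (adjusted p = 0.0382, limma). The call depended on small changes of the fit: it was lost with a pseudocount of 0.1 (adjusted p = 0.076), without the filter, after either rescaling and with the replicate block (0.0683). It was also lost without any 1 library of either sham group and without preconditioned RIRI replicate 1 or 3, with adjusted p up to 0.21 and differences from 1.09 to 1.27. In RIRI it read 2.23, 4.41 and 1.78 in normoxic and 14.2, 11.2 and 13.5 in preconditioned mice, so that preconditioned RIRI was above normoxic sham. The difference between the RIRI groups was 1.93 ± 0.20 (adjusted p = 5.44e-05). It fell with injury by 1.42 ± 0.20 in normoxic mice and by 0.64 ± 0.20 in preconditioned mice on the log2 scale, of which the latter was lost without preconditioned sham replicate 3 or preconditioned RIRI replicate 2 (adjusted p up to 0.065). The interaction was not called (0.78 ± 0.29, adjusted p = 0.0688) but was without normoxic RIRI replicate 2 (1.06, adjusted p = 0.00297).

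Several members differed between the sham groups without overlap and without a call. Slc7a13 stood at 409 ± 11.1 in normoxic and 305 ± 39.3 FPKM in preconditioned sham (-0.43 ± 0.18, adjusted p = 0.309), while Slc7a12 moved the other way. Slc6a15 was at 7.56 ± 0.83 and 4.60 ± 0.72 FPKM (-0.62 ± 0.13, adjusted p = 0.0667, limma). It was called as lower after median-ratio rescaling (-0.69, adjusted p = 0.029) and quantile normalization (-0.71, adjusted p = 0.027), and when only the sham groups were fitted (adjusted p = 0.046). Slc6a12 was at 0.514 ± 0.165 and 1.73 ± 0.35 FPKM (0.85 ± 0.23, adjusted p = 0.166), and was called when only the sham groups were fitted (adjusted p = 0.0242) or without normoxic RIRI replicate 2 (adjusted p = 0.0095). The fit of only the sham groups called more of all genes, 192 higher and 111 lower, against 23 and 29 in the fit of all groups. The summed FPKM of 7 red blood cell markers was 702 to 975 in normoxic sham and 1674 to 2058 in preconditioned sham, and that of 10 collecting duct markers was 318 to 372 and 481 to 639. Both lists hold Slc4a1. Between the sham groups, 0 of 6 tested red blood cell markers and 0 of 10 collecting duct markers were called. The sum of 14 proximal tubule markers was 8264 to 8746 in normoxic and 6523 to 7288 in preconditioned sham, with 1 marker called as lower. Whether these bear on the sham differences was not tested.

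**Figure D4:**
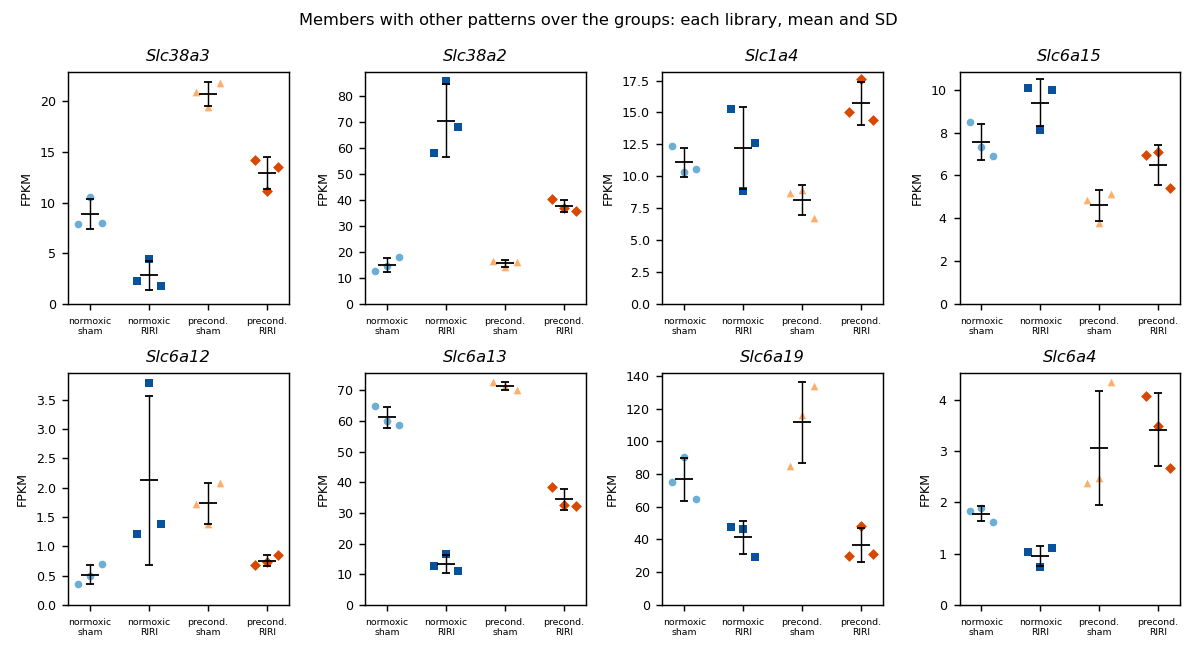
FPKM of 8 members in each library (points), with the group mean and SD (bars, n = 3). Slc38a3 is higher in preconditioned than in normoxic mice after either surgery, Slc6a15 is lower, Slc1a4 is highest in preconditioned RIRI, and 1 normoxic RIRI mouse at 3.78 FPKM sets the spread of Slc6a12.

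Genes of amino acid handling were also read from lists made for this report, to be held against 41.6% of all genes called higher and 30.1% lower with injury in normoxic mice, and 33% and 19.4% in preconditioned mice. Of 11 tested partners and further carriers, 2 rose and 6 fell in normoxic mice, and 2 rose and 4 fell in preconditioned mice. Cltrn, the collectrin that brings B0AT1 to the kidney brush border, went from 896 ± 32.7 to 355 ± 23.1 FPKM in normoxic (-1.34 ± 0.11, adjusted p = 4.31e-07) and from 802 ± 81.1 to 402 ± 55.9 in preconditioned mice (-0.999 ± 0.106, adjusted p = 1.68e-05, limma). Slc15a2, a peptide carrier of the brush border, fell from 20.6 ± 0.183 to 7.26 ± 1.73 and from 22.8 ± 2.63 to 9.32 ± 0.46 FPKM. Of 27 genes of amino acid sensing by mTORC1, which include the member Slc38a9 (not called), 7 rose and 12 fell in normoxic mice and 7 rose and 6 fell in preconditioned mice. Rraga, a Rag GTPase, rose (0.72 ± 0.08) and Lamtor2, a Ragulator subunit, fell (-0.86 ± 0.10) in the former. Of 11 genes of the gamma-glutamyl cycle and ammonia production, 4 rose and 5 fell in normoxic mice, and 6 rose and 4 fell in preconditioned mice. Ggt1, the brush border gamma-glutamyltransferase, went from 609 ± 7.37 to 326 ± 22.5 FPKM in normoxic mice. No gene of these 3 lists or of the ATF4 list was called in preconditioned against normoxic sham.

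The 25 members that did not pass the filter were low in every group, with Slc7a6 the highest of them. In the fit without the filter, Slc7a6 (0.72) and Slc38a1 (0.43) were called as higher in normoxic RIRI than in normoxic sham. Slc1a2 (-0.19), Slc1a3 (-0.21), Slc38a4 (-0.28), Slc38a11 (-0.12) and Slc43a1 (-0.26) were called as lower there. The 15 members under 0.1 FPKM in every group mean included carriers of GABA, dopamine, noradrenaline and glycine of nerve cells (Slc6a11, Slc6a3, Slc6a2 and Slc6a5), at 0 to 2 recovered reads in each library. These are the smallest read numbers that fit the FPKM steps, and the true ones may be higher.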

How the data were processed

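RNA sequencing of whole kidney from 12 mice was analysed, and the proteomic measurements of the study were not analysed here. The authors deposited 1 table of FPKM values per gene and library. HTSeq, DESeq2 and the mm10 genome are named in the submitters' processing notes, without versions or roles, while aligner, annotation and use of strand are unstated there and in the labels. For 25548 of 25553 genes the FPKM values were whole multiples of a step (tolerance 1e-06). The smallest read numbers that fit were taken, which can be too low for genes read in few libraries. Values were analysed as log2(FPKM + 1), which understates changes of low genes. Genes with at least 1 FPKM in at least 3 of 12 libraries were fitted with limma 3.58.1 in R 4.3.3, as 1 model of 4 group means with a mean-variance trend, with Benjamini-Hochberg adjustment over 12357 genes. The test was run on simulated data first.

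Members may be named, with every library's value for those with a mean of at least 5 FPKM in some group or a call between the sham groups. Genes of other lists are named when called, at most 4 per list and comparison, by smallest adjusted p. The members and lists were chosen with earlier results of these data known. Alternatives were a pseudocount of 0.1, no filter or a filter at 5 FPKM, median-ratio and quantile scaling, fits of only the groups compared, no trend, a replicate block, each library left out, and limma voom on the recovered reads.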

Additional observations from a re-analysis of the deposited data

Results flagged for a closer look

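The effect of RIRI differed between preconditioned and normoxic mice for 15 of the 35 tested members, by the interaction term in limma after adjustment over all genes, where 23.9% of all genes were called. Values are the log2 effect in preconditioned minus that in normoxic mice.

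Of the carriers that rose with injury in normoxic mice, the rise was smaller with preconditioning for Slc3a2 (-0.95), Slc38a2 (-0.93), Slc7a1 (-0.92), Slc7a5 (-0.90) and Slc6a9 (-0.77). The call of Slc6a9 was lost in 9 of 12 fits that left out 1 library and in 5 of 8 other settings. Slc6a17 (-0.56) was called as risen in normoxic mice and was not called in preconditioned mice. Slc6a12 (-1.59) rose in normoxic and fell in preconditioned mice. Of the carriers that fell in normoxic mice, the effect was less negative with preconditioning for Slc3a1 (0.84), Slc7a9 (0.96), Slc1a1 (0.97), Slc6a13 (1.09), Slc36a1 (1.10), Slc6a20b (1.17) and Slc7a7 (1.63). Slc1a4 (0.77) was called as risen in preconditioned mice and was not called in normoxic mice, and its interaction call was lost in 5 of 12 fits that left out 1 library and in 1 of 8 other settings, the fit without the filter. The summed proximal tubule and neutrophil marker levels, given above, also differed between the RIRI groups, and their part in these differences was not tested.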

How the results depend on the processing

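No called difference changed direction under any alternative run. Of the counts of members called, the one between the sham groups (2 higher, 0 lower) moved by over 1.5 times. It was 1 higher with a pseudocount of 0.1 or without the filter, 1 higher and 1 lower after median-ratio rescaling or quantile normalization, and 4 in all with 1 lower when only the sham groups were fitted. Calls over all 12357 genes moved too, from 23 higher and 29 lower to 192 and 111 when only the sham groups were fitted. They were 16 and 51 after median-ratio rescaling, and 10 and 33 after quantile normalization. Fits without 1 library each gave 1 to 3 there, all higher (1 to 3 higher, 0 lower). The cause was not tested. The same fits gave 23 to 28 calls in normoxic RIRI against sham (9 to 11 higher, 14 to 18 lower), 19 to 25 in preconditioned RIRI against sham (8 to 11 and 10 to 14), 19 to 24 between the RIRI groups (12 to 16 and 6 to 8) and 13 to 16 interactions (7 to 10 and 6 to 7). The fit of only the groups compared was not run for the interaction, which needs all groups.

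Differences of single members also moved by over 1.5 times. With a pseudocount of 0.1 and with voom on recovered reads, the normoxic difference with injury became 1.71 and 1.87 for Slc6a12 (from 0.96), -0.85 and -0.91 for Slc6a4 (from -0.51) and -3.55 and -4.60 for Slc7a12 (from -1.48). Under the same settings the difference between the RIRI groups became -1.21 and -1.29 for Slc6a12 (from -0.74) and 3.32 and 4.36 for Slc7a12 (from 1.34), and with voom 1.83 for Slc6a4 (from 1.17). The interaction of Slc6a12 became -2.80 and -3.05, and its difference in preconditioned mice -1.09 and -1.18. Quantile normalization took the normoxic rise of Slc43a3 from 0.37 to 0.20 and that of Slc6a17 from 0.41 to 0.26, and without normoxic RIRI replicate 2 the values of Slc6a12 were 0.60 with normoxic injury and -0.39 between the RIRI groups. Without normoxic RIRI replicate 3 the normoxic difference of Slc43a3 was 0.22, and without preconditioned RIRI replicate 2 the difference of Slc6a6 between the RIRI groups was 0.30. The uncalled normoxic differences of Slc1a4, Slc38a7 and Slc6a18 turned below 0 after median-ratio rescaling, as the uncalled interaction of Slc7a12 turned above 0 with the lower pseudocount and with voom. Both rescalings called Slc6a17 as lower with injury in preconditioned mice (-0.25 and -0.26), and Slc6a18 was called as higher there after quantile normalization (0.30) and when only the groups compared were fitted. The lower pseudocount called the interaction of Slc6a4 (1.03, adjusted p = 0.0419), and voom that of Slc38a3 (1.08, adjusted p = 0.0218).

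Samples share replicate numbers across groups, but 18 same-numbered pairs had correlations of -0.25 to 0.17 between their deviations, and in 9 of 18 the same number correlated best, so the numbers were not taken as a pairing. With the replicate block, 1 member was called between the sham groups (1 higher), 26 in normoxic RIRI against sham, 23 in preconditioned RIRI against sham, 22 between the RIRI groups and 15 for the interaction. The block called Slc6a6 in normoxic RIRI against sham (adjusted p = 0.0373), Slc7a8 between the RIRI groups (0.04) and the interaction of Slc38a7 (0.0429), and lost Slc38a3 between the sham groups (0.0683) and the interaction of Slc6a9 (0.0578), and it changed no other call of a member. At this depth members under 0.1 FPKM held few reads, and differences among them were not detectable.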
